A study of Mus musculus with 10 samples.

Results

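The genes described here mark T cells, B cells and NK cells, the lymphocytes of adaptive immunity and their innate cytotoxic relatives, in the RNA of 10 mouse tumors. They were chosen by name, from 33 lineage and effector genes of lymphocytes, and not by their values. Of these, 32 were found among the 16895 genes of the files, and 28 were high enough to be tested. PAX5, BLK, IFNG and NCR1 fell below the filter on low values, and CD8B was not analysed here. The tumors were NLS-2SA-YAP1 tumors (n = 3), made with a constitutively active form of YAP1, and YAP1-MAML2-v2 tumors (n = 7), made with a fusion of YAP1 to MAML2. YAP1 is the transcriptional coactivator that the Hippo pathway restrains. Each construct was carried by the avian retrovirus RCAS. Chicken DF1 fibroblasts that made the virus were injected into the subarachnoid space of mice 0 to 3 days old, and RNA came from whole ground frozen tumors. All mice in both groups were Cdkn2a null and carried tv-a, the receptor for the virus, under Nestin, which limits first infection to Nestin-expressing cells. The labels give DF1 as the cell type of every library, although the values are those of mouse genes. The 3 extra axial tumors were NLS-2SA-YAP1 replicate 1 and YAP1-MAML2-v2 replicates 2 and 6. The 6 extra cranial tumors were NLS-2SA-YAP1 replicates 2 and 3 and YAP1-MAML2-v2 replicates 1, 3, 4 and 5, and YAP1-MAML2-v2 replicate 7 was intra ventricular. The deposited name of YAP1-MAML2-v2 replicate 6 begins with the same number as that of replicate 7, and the labels do not say why. No normal meninges and no uninfected mouse was analysed here.

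A T cell recognizes antigen through its receptor, whose CD3 chains pass the signal to the kinases LCK and ZAP70, while CD4 or CD8 binds the MHC molecule that presents the peptide. A second signal from costimulatory receptors such as CD28 permits activation, and checkpoint receptors such as PDCD1, CTLA4 and LAG3 restrain it. B cells signal through an antibody receptor with the CD79A and CD79B chains, and cytotoxic T cells and NK cells kill with perforin and granzymes. Lymphocytes are sparse in the healthy brain but patrol the meninges, and they are a variable minority of the cells in meningeal tumors. In RNA from whole tumors, fewer lymphocytes and less RNA per lymphocyte cannot be told apart.

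Promoters of 4 members are shown because they represent the lineages described below and because Cd3d and Cd3g, whose products join the same receptor, are read in opposite directions from starts 1355 bases apart. Each window runs from 250 bases before to 50 after the gene's start in RefSeq (GRCm38.p6) and is written 5′ to 3′ on the gene's own strand. Capitals mark AGGAAG, a core that ETS factors bind, and TGTGGT, a core that RUNX factors bind, on either strand (CTTCCT and ACCACA are their reverse complements). The Cd3d window lies at chr9:44981536-44981835 on the plus strand and holds 2 ETS cores. The Cd3g window lies at chr9:44980382-44980681 on the minus strand and holds 0. The Cd79a window, of a B cell receptor chain, lies at chr7:24897247-24897546 on the plus strand and holds 1 ETS core. The Prf1 window, of perforin, lies at chr10:61297586-61297885 on the plus strand and holds 4 ETS cores and 1 RUNX core.
Cd3d: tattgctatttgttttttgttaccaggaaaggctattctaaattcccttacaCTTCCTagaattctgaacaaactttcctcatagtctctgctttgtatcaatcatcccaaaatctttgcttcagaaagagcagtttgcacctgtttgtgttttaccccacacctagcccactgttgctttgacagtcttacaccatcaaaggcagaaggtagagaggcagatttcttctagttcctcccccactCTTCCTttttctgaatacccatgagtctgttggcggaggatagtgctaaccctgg
Cd3g: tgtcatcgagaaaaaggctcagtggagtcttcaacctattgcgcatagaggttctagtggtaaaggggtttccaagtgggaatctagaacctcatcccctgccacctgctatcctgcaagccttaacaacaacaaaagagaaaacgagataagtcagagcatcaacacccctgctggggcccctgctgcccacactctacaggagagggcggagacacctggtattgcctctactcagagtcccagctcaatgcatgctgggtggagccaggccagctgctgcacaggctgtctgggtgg
Cd79a: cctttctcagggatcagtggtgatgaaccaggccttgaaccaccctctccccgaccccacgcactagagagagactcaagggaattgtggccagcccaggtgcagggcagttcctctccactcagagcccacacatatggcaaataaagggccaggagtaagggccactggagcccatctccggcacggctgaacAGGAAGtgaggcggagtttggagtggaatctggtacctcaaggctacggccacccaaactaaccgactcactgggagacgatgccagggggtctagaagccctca
Prf1: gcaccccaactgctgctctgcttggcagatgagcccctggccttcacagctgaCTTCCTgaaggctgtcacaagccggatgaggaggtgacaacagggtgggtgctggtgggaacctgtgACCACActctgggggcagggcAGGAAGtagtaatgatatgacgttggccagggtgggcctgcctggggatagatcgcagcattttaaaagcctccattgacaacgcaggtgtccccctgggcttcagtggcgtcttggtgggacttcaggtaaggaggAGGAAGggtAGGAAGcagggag

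RefSeq windows were found for 22 of the 32 members, and 27 windows in all, since some genes have several starts. The ETS core was in 15 of them (55.6%), against 35.4% of all 32851 windows of the same length. The RUNX core was in 7 (25.9%), against 16.8% of all windows. GGTGTGA, a core bound by T-box factors such as the members TBX21 and EOMES, was in 1 (3.70%), against 3.98%. These are counts of letters and not of bound sites. Coordinates of genes are those of GENCODE M21, the annotation of mm10, in which all 32 symbols were matched to a mouse gene. Cd3g (chromosome 9, 44969572 to 44980431, minus strand), Cd3d (44981786 to 44987339, plus strand) and Cd3e (44998740 to 45009627, minus strand) lie side by side. Cd28 (chromosome 1, 60716800 to 60773359), Ctla4 (60887000 to 60915832) and Icos (60977927 to 61000320) also form a cluster, all on the plus strand. Cd4 (chromosome 6, 124864692 to 124888221) and Lag3 (124904361 to 124911705) are close neighbors on the minus strand.

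Library totals of the deposited values ran from 28001143 to 44544314. The values are whole numbers but not plain read counts, so depth is unknown, and a member listed at 0 or 1 was read only as low. CD68, a macrophage gene, read 0 or 1 in 3 libraries in which no other gene of the macrophage list was. Levels below are CPM, the value of a gene scaled to a common library total, and no 2 libraries held identical values. Correlations of log2 CPM over genes between 2 libraries lay between 0.659 and 0.915, and the highest was between YAP1-MAML2-v2 replicates 5 and 6.

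For most members the highest and the lowest value were in single tumors of the same construct and region. Whether the members differed more between tumors than between constructs or regions was not tested. YAP1-MAML2-v2 replicate 6 was the highest of the 10 libraries for 27 of the 32 members, including all 7 T cell receptor and signaling genes, both measured coreceptors, all 3 regulatory T cell and IL-2 receptor genes and all 6 B cell genes. It was among the highest 3 libraries for all 32. YAP1-MAML2-v2 replicate 2 was lowest, or tied for lowest, for 28 members, and listed 15 of them at 0 or 1. Both are extra axial tumors of the same construct. Over all 16895 genes, replicate 2 listed 2636 at 0 and 1111 at 1, against 1837 to 2628 at 0 and 740 to 1111 at 1 in the other libraries. The shares of all genes that were highest in replicate 6 or lowest in replicate 2 were not computed. YAP1-MAML2-v2 replicate 5 was among the highest 3 for 28 members and NLS-2SA-YAP1 replicate 3 for 24. Summed over the members without CD4, levels were 18.9, 26.5 and 60.7 CPM over NLS-2SA-YAP1 replicates 1, 2 and 3, against 4.53 to 166 CPM with a median of 39.2 in YAP1-MAML2-v2 tumors. The range of the YAP1-MAML2-v2 tumors enclosed all 3 NLS-2SA-YAP1 tumors.

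**Figure D1:**
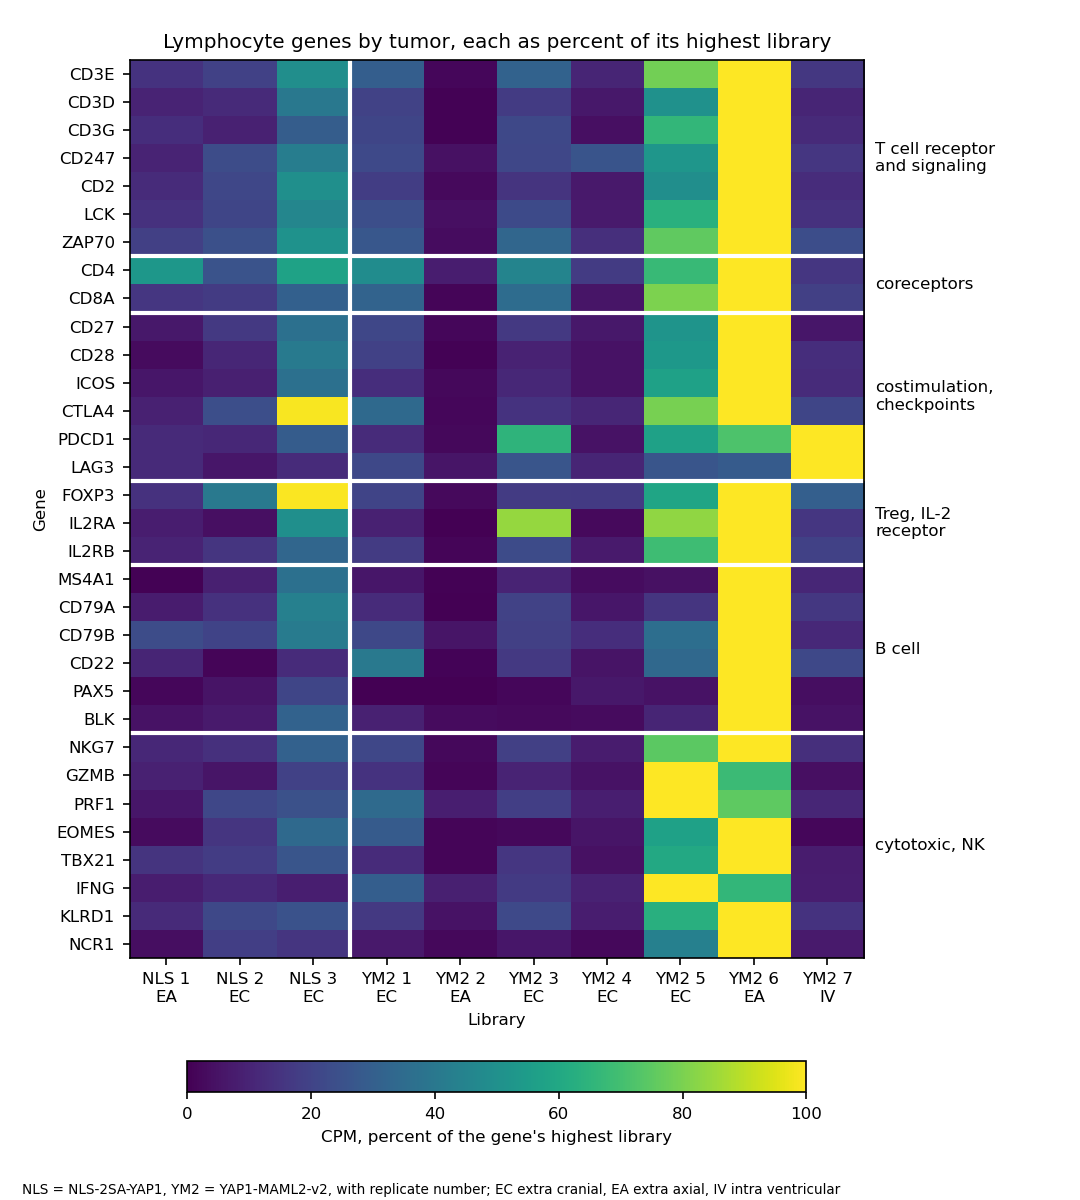
Level of each of the 32 members (rows, by role) in each library (columns, NLS-2SA-YAP1 left of YAP1-MAML2-v2), as CPM in percent of the gene's highest library. The column of YAP1-MAML2-v2 replicate 6 holds the highest value for 27 members, and that of replicate 2 is the lowest or tied for 28.

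The members varied more between libraries than most genes did. The SD of log2 CPM over the 10 libraries had a median of 1.43 over the 28 members tested, against 0.91 over the 10067 tested genes within the members' range of mean level and 0.82 over all genes tested. It was 0.93 over 12 pan-leukocyte genes and 0.92 over 11 macrophage genes. Other T cell genes had 1.44 (23 genes), and other cytotoxic and NK genes 1.52 (12 genes). Other B cell genes had 1.18 (6 genes), plasma cell genes 1.25 (5 genes) and erythroid genes 1.27 (2 genes). Neutrophil (2.22, 5 genes), skeletal muscle (2.26, 4 genes) and neuron genes (1.82, 2 genes) varied more than the members. A wide spread was therefore not particular to the members. The members' range of mean log2 CPM ran from -2.08 (ICOS) to 6.04 (CD4), with KLRD1 next below CD4 at 2.16. These comparisons are therefore not matched for level, and the part of low level in the members' spread was not tested. Among members IL2RA had the widest spread (2.33) and CD79B the narrowest (1.05). PTPRC (CD45), carried by all leukocytes, was also highest in YAP1-MAML2-v2 replicate 6 (204 CPM) and lowest in replicate 2 (12.8 CPM). Replicate 7, of the intra ventricular region, stood apart in genes of other cell types. It was the highest library for 7 of the 12 macrophage genes in the files, such as the growth factor receptor CSF1R, with 623 CPM in replicate 7 against 109 to 223 CPM in the other libraries. It was the lowest for 2 others, the scavenger receptors MRC1 (4.62 CPM, against 33.9 to 414 CPM) and CD163 (17.9 CPM, against 33.6 to 810 CPM). It was also the highest for 3 of the 4 neuron genes, the synaptic SNAP25 (39.8 CPM, against at most 1.87 CPM) and SYT1 (18.6 CPM, against at most 3.49 CPM) and the neuronal splicing factor RBFOX3 (12.3 CPM, against at most 0.481 CPM). SYT1 was listed at 0 or 1 in 7 libraries, and SNAP25 and RBFOX3 in 3 each. The fourth, the tubulin TUBB3, was lowest there, at 359.6 CPM against 378 to 1066 CPM, and makes up most of the neuron sum of 379 to 949 CPM in NLS-2SA-YAP1 tumors and 430 to 1072 CPM across YAP1-MAML2-v2 tumors. The lymphocyte members of replicate 7 had a median rank of 7 among the 10 libraries, where 1 is the highest.

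**Figure D2:**
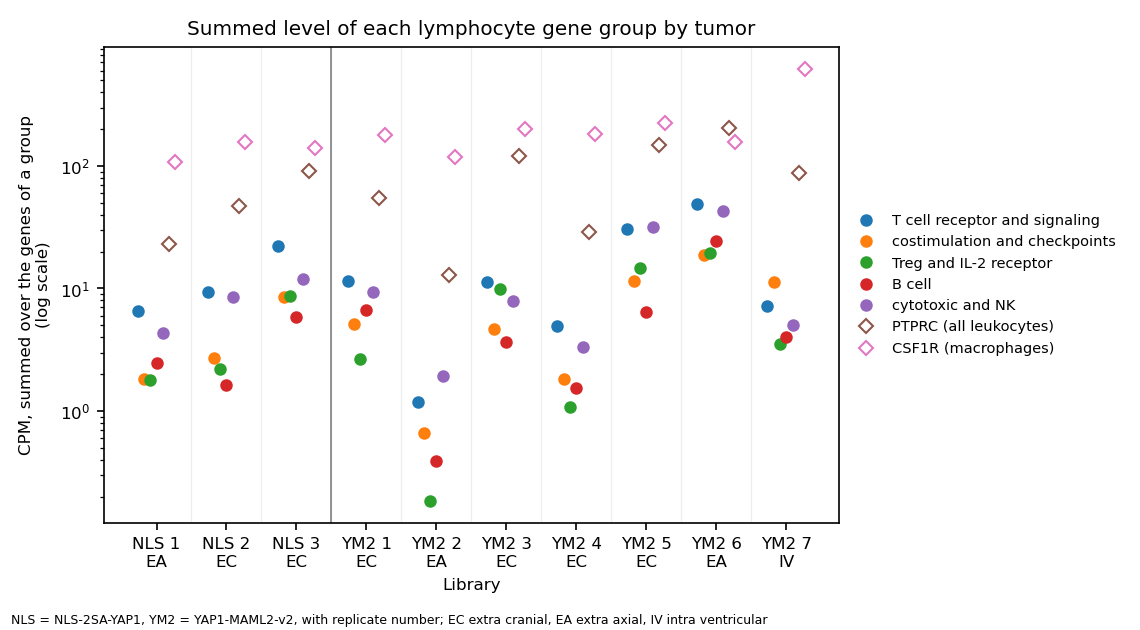
CPM summed over the members of each role (filled points, log scale) in each library, with PTPRC and CSF1R as single genes (open points). The T cell receptor sum spans 1.18 CPM in YAP1-MAML2-v2 replicate 2 to 48.9 CPM in replicate 6, while CSF1R is highest in replicate 7 at 623 CPM.

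The first group of 7 genes encodes the T cell receptor complex and its proximal signaling. CD3E, a receptor chain required for surface assembly, had 1.63, 2.15 and 5.53 CPM over NLS-2SA-YAP1 replicates 1, 2 and 3, against 0.210 to 11.2 CPM with a median of 3.33 in YAP1-MAML2-v2 tumors. CD2, an adhesion receptor of T and NK cells, had 1.34, 2.36 and 5.45 CPM over NLS-2SA-YAP1 replicates 1, 2 and 3, against 0.288 to 11.0 CPM with a median of 1.65 in YAP1-MAML2-v2 tumors. ZAP70, the kinase recruited to phosphorylated CD3 and CD247 chains, had 1.01, 1.30 and 2.69 CPM over NLS-2SA-YAP1 replicates 1, 2 and 3, against 0.183 to 5.28 CPM with a median of 1.43 in YAP1-MAML2-v2 tumors. For all 3 genes the highest and the lowest value were both in YAP1-MAML2-v2 tumors, in replicates 6 and 2, so that the groups overlapped. CD3E differed 53.2-fold between those tumors, where its deposited values were 397 and 8. The other receptor genes, CD3D, CD3G, CD247 (the zeta chain) and LCK, the kinase that starts the cascade, averaged 1.45 to 1.70 CPM over the series. CD3D and CD3G were listed at 1 in YAP1-MAML2-v2 replicate 2. CD247 was the only gene of the group for which YAP1-MAML2-v2 replicate 4 (1.33 CPM) was above 4 of the other YAP1-MAML2-v2 tumors.

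CD4 stood apart in level from every other member. It averaged 20.6 CPM per kilobase of exon, against 5.03 for KLRD1, the next member on that scale, 1.14 for CD8A and 0.962 for CD3E. CD4 had 101, 48.3 and 109 CPM over NLS-2SA-YAP1 replicates 1, 2 and 3, against 15.5 to 190 CPM with a median of 85.5 in YAP1-MAML2-v2 tumors. CD8A, the coreceptor of cytotoxic T cells, had 1.94, 2.12 and 3.77 CPM over NLS-2SA-YAP1 replicates 1, 2 and 3, against 0.183 to 12.3 CPM with a median of 3.90 in YAP1-MAML2-v2 tumors. CD8A kept close to CD3E: their ratio was 0.682 to 1.19 in NLS-2SA-YAP1 tumors and 0.585 to 1.30 in YAP1-MAML2-v2 tumors. The ratio of CD4 to CD3E was 61.8, 22.5 and 19.8 in NLS-2SA-YAP1 replicates 1, 2 and 3, against 14.6 to 73.9 in YAP1-MAML2-v2 tumors. The 2 high ratios, in NLS-2SA-YAP1 replicate 1 and YAP1-MAML2-v2 replicate 2, were both of extra axial tumors with few T cell receptor transcripts. The third extra axial tumor, YAP1-MAML2-v2 replicate 6, had 17.0. Few such transcripts did not always go with a high ratio. YAP1-MAML2-v2 replicate 4 had a T cell receptor sum of 4.93 CPM and a ratio of 28.2, and replicate 7 had 7.25 CPM and 16.7. That sum was 6.51 CPM in NLS-2SA-YAP1 replicate 1. In humans and rats monocytes and macrophages also carry CD4, and in mice some dendritic cells do. The 12 macrophage genes in the files summed to 739 to 1316 CPM in NLS-2SA-YAP1 tumors and 776 to 2642 CPM across YAP1-MAML2-v2 tumors, and their part in the CD4 level was not tested.

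**Figure D3:**
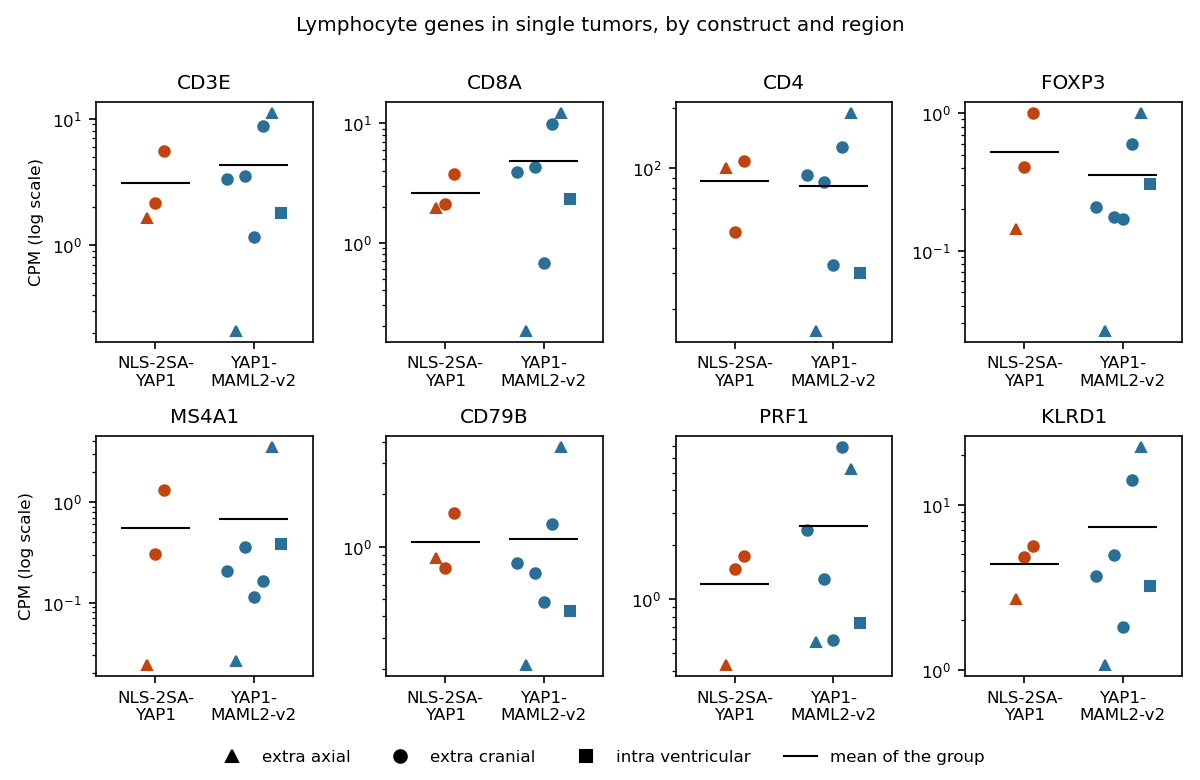
CPM (log scale) of 8 members in single tumors, with NLS-2SA-YAP1 left of YAP1-MAML2-v2 in each panel, symbols for the region and a line at each group's mean. In CD3E the 3 NLS-2SA-YAP1 tumors at 1.63 to 5.53 CPM lie inside the YAP1-MAML2-v2 range of 0.210 to 11.2 CPM, and the extra axial tumors (triangles) hold both ends of that range.

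Among costimulatory and checkpoint receptors, 4 of 6 were highest in YAP1-MAML2-v2 replicate 6, and the other two, LAG3 and PDCD1, were highest in the intra ventricular replicate 7. CD28, the main costimulatory receptor of naive T cells, had 0.287, 1.06 and 3.97 CPM over NLS-2SA-YAP1 replicates 1, 2 and 3, against 0.0524 to 9.69 CPM with a median of 1.28 in YAP1-MAML2-v2 tumors. CD27, a TNF receptor family costimulator, had 0.191, 0.512 and 1.13 CPM over NLS-2SA-YAP1 replicates 1, 2 and 3, against 0.0524 to 3.06 CPM with a median of 0.506 in YAP1-MAML2-v2 tumors. Both genes were lowest in YAP1-MAML2-v2 replicate 2, where the deposited value was 2. LAG3, an inhibitory receptor that binds MHC class II, had 0.981, 0.512 and 1.01 CPM over NLS-2SA-YAP1 replicates 1, 2 and 3, against 0.472 to 8.22 CPM with a median of 2.15 in YAP1-MAML2-v2 tumors. The 8.22 CPM of replicate 7 was far above the next tumor, replicate 6, at 2.36 CPM, although CD3E was only 1.80 CPM in replicate 7. The ratio of LAG3 to CD3E was 4.57 there, against 0.182 to 2.25 in the other libraries. PDCD1 (PD-1), an inhibitory receptor of antigen-experienced T cells, also had its highest ratio to CD3E in replicate 7, at 0.671, against 0.0446 to 0.225 elsewhere. LAG3 and PDCD1 are not restricted to T cells. Replicate 7 also had the highest CSF1R and the highest SNAP25, SYT1 and RBFOX3 of the series, and the part of macrophage and neuron genes in the LAG3 and PDCD1 levels was not tested. CTLA4, which competes with CD28 for its ligands, was nearly as high in NLS-2SA-YAP1 replicate 3 (1.56 CPM) as in YAP1-MAML2-v2 replicate 6 (1.57 CPM). ICOS, a costimulator induced on activation, stayed at or below 1.15 CPM in the 10 libraries.

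FOXP3, the transcription factor of regulatory T cells, had 0.144, 0.410 and 1.01 CPM over NLS-2SA-YAP1 replicates 1, 2 and 3, against 0.0262 to 1.01 CPM with a median of 0.208 in YAP1-MAML2-v2 tumors. NLS-2SA-YAP1 replicate 3 and YAP1-MAML2-v2 replicate 6 were level at the top, and the lowest value was again in YAP1-MAML2-v2 replicate 2, listed at 1. IL2RA (CD25), the high affinity IL-2 receptor subunit of regulatory and activated T cells, had 0.718, 0.376 and 4.55 CPM over NLS-2SA-YAP1 replicates 1, 2 and 3, against 0.0262 to 9.16 CPM with a median of 1.44 in YAP1-MAML2-v2 tumors. IL2RB, the signaling subunit shared with the IL-15 receptor, had 0.933, 1.43 and 3.07 CPM over NLS-2SA-YAP1 replicates 1, 2 and 3, against 0.131 to 9.27 CPM with a median of 1.80 in YAP1-MAML2-v2 tumors. In YAP1-MAML2-v2 replicate 3 IL2RA reached 7.69 CPM, close to the 9.16 CPM of replicate 6, while CD3E was 3.49 CPM in replicate 3 and 11.2 CPM in replicate 6. The ratio of IL2RA to CD3E was 2.20 in replicate 3 and 0.125 to 0.872 in the other libraries.

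B cell genes were low outside a few tumors, with YAP1-MAML2-v2 replicate 6 highest for all 6. MS4A1 (CD20), a surface protein of mature B cells, had 0.0239, 0.307 and 1.31 CPM over NLS-2SA-YAP1 replicates 1, 2 and 3, against 0.0262 to 3.54 CPM with a median of 0.208 in YAP1-MAML2-v2 tumors. CD79B, a signaling chain of the B cell receptor, had 0.862, 0.752 and 1.56 CPM over NLS-2SA-YAP1 replicates 1, 2 and 3, against 0.210 to 3.74 CPM with a median of 0.709 in YAP1-MAML2-v2 tumors. Its partner CD79A averaged 0.449 CPM and read 0 in YAP1-MAML2-v2 replicate 2. PAX5, the transcription factor that commits cells to the B lineage, had 0.0239, 0.0683 and 0.276 CPM over NLS-2SA-YAP1 replicates 1, 2 and 3, against 0 to 1.32 CPM with a median of 0.0474 in YAP1-MAML2-v2 tumors. BLK, a kinase of the B cell receptor, had 0.0479, 0.0683 and 0.302 CPM over NLS-2SA-YAP1 replicates 1, 2 and 3, against 0.0253 to 0.955 CPM with a median of 0.0474 in YAP1-MAML2-v2 tumors. In all 5 genes NLS-2SA-YAP1 replicate 3 was second, after YAP1-MAML2-v2 replicate 6, and PAX5 was listed at 0 or 1 in 4 libraries and BLK in 3. YAP1-MAML2-v2 replicate 6 alone held 55.1% of the CPM of MS4A1 summed over libraries, 69.0% of that of PAX5 and 56.6% of that of BLK.

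CD22, a sialic acid binding receptor that dampens B cell signaling, was spread differently from the other B cell genes. It had 1.34, 0.171 and 1.61 CPM over NLS-2SA-YAP1 replicates 1, 2 and 3, against 0.131 to 13.1 CPM with a median of 2.84 in YAP1-MAML2-v2 tumors. YAP1-MAML2-v2 replicate 1 was second, at 5.33 CPM, and NLS-2SA-YAP1 replicate 3 was below 5 of the YAP1-MAML2-v2 tumors. The ratio of CD22 to CD79B was 0.227 to 1.56 in NLS-2SA-YAP1 tumors, against 0.625 to 6.67 in YAP1-MAML2-v2 tumors, with the highest values in replicates 1 (6.63) and 7 (6.67). Without CD22, the B cell genes summed to 6.44% to 23.4% of the T cell receptor genes over the 10 libraries, and the lowest share was in YAP1-MAML2-v2 replicate 5.

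Cytotoxic and NK genes were highest in YAP1-MAML2-v2 replicates 5 and 6. KLRD1 (CD94), a lectin-like receptor of NK cells and some CD8 T cells, had 2.70, 4.82 and 5.65 CPM over NLS-2SA-YAP1 replicates 1, 2 and 3, against 1.07 to 22.4 CPM with a median of 3.69 in YAP1-MAML2-v2 tumors. PRF1 (perforin), which opens pores in target cells, had 0.431, 1.47 and 1.73 CPM over NLS-2SA-YAP1 replicates 1, 2 and 3, against 0.577 to 6.96 CPM with a median of 1.29 in YAP1-MAML2-v2 tumors. EOMES, a T-box factor of NK and effector CD8 T cells, had 0.168, 0.854 and 1.91 CPM over NLS-2SA-YAP1 replicates 1, 2 and 3, against 0.0786 to 5.59 CPM with a median of 0.312 in YAP1-MAML2-v2 tumors. The groups overlapped for all 3, and PRF1 was the only one of them with its lowest value in an NLS-2SA-YAP1 tumor. PRF1, GZMB (granzyme B) and IFNG (interferon gamma) were highest in YAP1-MAML2-v2 replicate 5, at 6.96, 1.81 and 0.297 CPM. In replicate 6 PRF1 had 5.23 CPM, GZMB 1.24 CPM and IFNG 0.197 CPM. IFNG, the cytokine of activated T and NK cells, was listed at 0 or 1 in 6 libraries, including all 3 NLS-2SA-YAP1 tumors. NCR1 (NKp46), the most NK-restricted gene of the group, had 1.29 CPM in YAP1-MAML2-v2 replicate 6 and at most 0.561 CPM elsewhere. NKG7, a cytotoxic granule protein, averaged 1.39 CPM, and TBX21 (T-bet), the T-box factor of type 1 responses, averaged 0.499 CPM. The cytotoxic and NK genes summed to 53.5% to 91.5% of the T cell receptor genes in NLS-2SA-YAP1 tumors and to 67.2% to 164% in YAP1-MAML2-v2 tumors. The 164% was in replicate 2, where both sums were lowest. KLRD1 alone held 6.45 of the 12.6 CPM of the cytotoxic and NK sum on average, and 1.07 of 1.94 CPM in replicate 2.

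**Figure D4:**
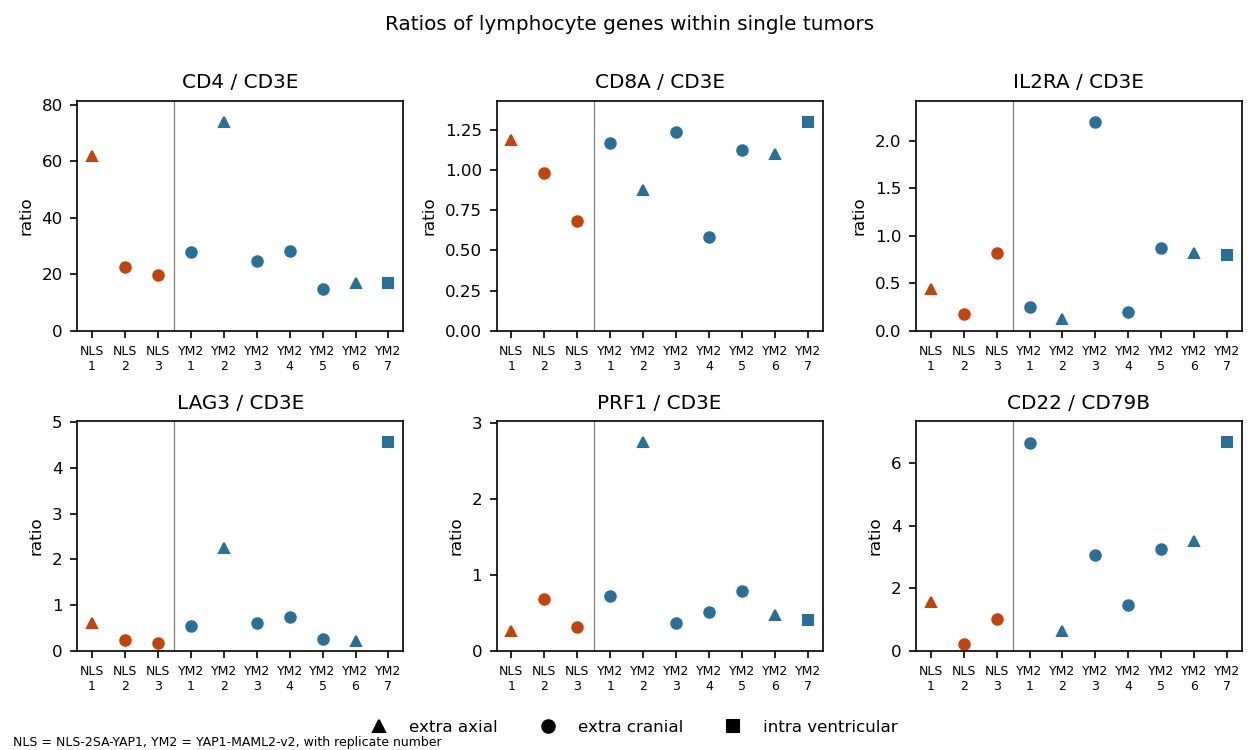
Ratios of CPM between pairs of members within single libraries (linear axes from 0), NLS-2SA-YAP1 left of YAP1-MAML2-v2, with symbols for the region. CD8A to CD3E stays between 0.585 and 1.30, while LAG3 to CD3E reaches 4.57 in the intra ventricular tumor and IL2RA to CD3E reaches 2.20 in YAP1-MAML2-v2 replicate 3.

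The first comparison asked whether the constructs gave tumors that differ in lymphocyte genes. By edgeR's quasi-likelihood test with region as a term, 0 of the 28 members passed an adjusted p of 0.05, and 0 had an unadjusted p under 0.05. Over all 13707 genes tested, 0.0146% passed the adjusted threshold (2 genes) and 13.1% the unadjusted one. DESeq2 and limma-voom also called 0 members, where they called 5% and 0.693% of all genes. No member had groups that did not overlap, against 6.73% of all genes. Fitted log2 fold changes, NLS-2SA-YAP1 minus YAP1-MAML2-v2, were negative for 24 members and positive for 4. Their median was -0.61, against -0.03 over all genes tested. Other leukocyte lists also leaned negative. These were pan-leukocyte (10 of 12, median -0.35), macrophage (8 of 11, median -0.27) and neutrophil genes (4 of 5, median -0.35). Of skeletal muscle genes 0 of 4 were negative, and of erythroid genes 1 of 2. The median SE of a member was 1.30 on the log2 scale. The members' median log2 fold change turned to 0.55 without YAP1-MAML2-v2 replicate 6 and to 0.03 without NLS-2SA-YAP1 replicate 1. It was -1.31 without NLS-2SA-YAP1 replicate 3. It was -0.08 with limma on log2 CPM and -0.05 in the extra cranial libraries alone.

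By role, the fitted differences were negative for all 7 T cell receptor genes (median -0.49), 2 of 2 coreceptors, 5 of 6 costimulatory and checkpoint genes (median -0.63) and 6 of 6 cytotoxic and NK genes tested (median -0.86), with none past the threshold. The B cell genes were split, with 2 of 4 positive. CD3E averaged 3.10 ± 2.12 CPM in NLS-2SA-YAP1 tumors (SD, n = 3) and 4.27 ± 4.11 CPM in YAP1-MAML2-v2 tumors (SD, n = 7), with a log2 fold change of -0.60 ± 1.14 (standard error; adjusted p by edgeR = 0.884). CD4 averaged 86.1 ± 32.9 CPM in NLS-2SA-YAP1 tumors (SD, n = 3) and 82.0 ± 62.4 CPM in YAP1-MAML2-v2 tumors (SD, n = 7), with a log2 fold change of -0.08 ± 0.68 (standard error; adjusted p by edgeR = 0.980). CD8A averaged 2.61 ± 1.01 CPM in NLS-2SA-YAP1 tumors and 4.80 ± 4.60 CPM in YAP1-MAML2-v2 tumors, with a log2 fold change of -0.98 ± 1.18 (standard error; adjusted p by edgeR = 0.779). These 3 genes showed differences smaller than the SD within the YAP1-MAML2-v2 tumors.

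The member with the smallest p was CD22, which averaged 1.04 ± 0.76 CPM in NLS-2SA-YAP1 tumors (SD, n = 3) and 4.11 ± 4.40 CPM in YAP1-MAML2-v2 tumors (SD, n = 7). Its log2 fold change was -1.98 ± 1.35 (standard error; adjusted p by edgeR = 0.573, unadjusted p = 0.174). PRF1 had a log2 fold change of -1.34 ± 1.14 (standard error; adjusted p by edgeR = 0.666) and LAG3 one of -0.96 ± 0.86 (standard error; adjusted p by edgeR = 0.687). CD22, PRF1, LAG3, PDCD1 and GZMB kept a negative sign in each alternative in which they were tested, and none was called in any. MS4A1 leaned the other way, at 0.90 ± 1.75 (standard error; adjusted p by edgeR = 0.890), and turned to -0.92 without NLS-2SA-YAP1 replicate 3 and to -0.32 without the region term. KLRD1 had a log2 fold change of -0.76 ± 1.01 (standard error; adjusted p by edgeR = 0.807).

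**Figure D5:**
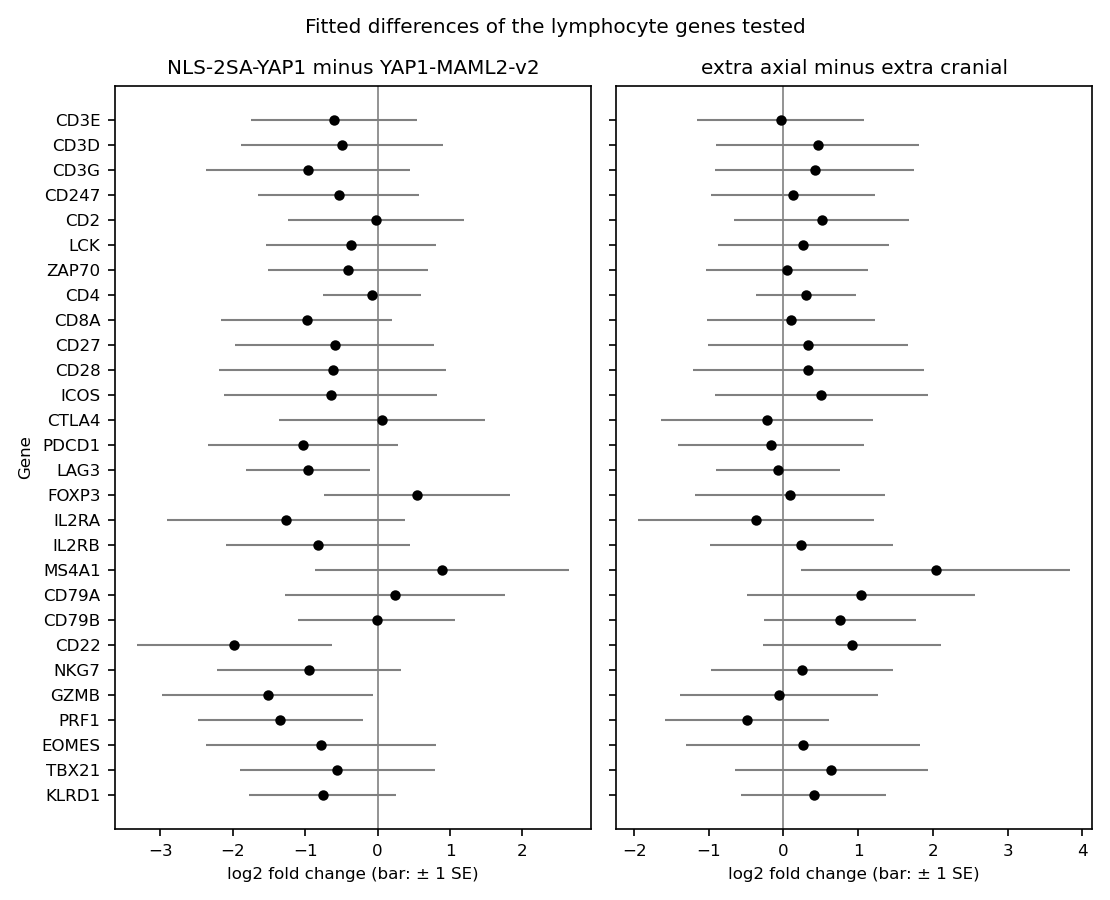
Fitted log2 fold changes of the 28 members tested (points) with 1 SE (bars), for NLS-2SA-YAP1 minus YAP1-MAML2-v2 (left) and extra axial minus extra cranial (right). No member is past the adjusted threshold in either panel, with CD22 the lowest on the left at -1.98 and MS4A1 the highest on the right at 2.04.

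The second comparison asked whether extra axial and extra cranial tumors differed. By edgeR, 0 of 28 members passed the adjusted threshold and 0 had an unadjusted p under 0.05, where 0% of all genes tested passed the adjusted threshold and 3.01% the unadjusted one. DESeq2 and limma-voom called 0 members, where they called 0.226% and 0% of all genes. No member had regions that did not overlap, against 0.89% of all genes. Log2 fold changes, extra axial minus extra cranial, were positive for 21 members and negative for 7, with a median of 0.26, against -0.01 over all genes. The extra axial group held the lowest tumor of the series and the highest, so its spread was wide. CD3E had 1.63, 0.210 and 11.2 CPM in the extra axial tumors (NLS-2SA-YAP1 replicate 1 and YAP1-MAML2-v2 replicates 2 and 6), against 1.16 to 8.77 CPM with a median of 3.41 in extra cranial tumors. Its means were 4.33 ± 5.95 CPM in extra axial tumors (SD, n = 3) and 4.07 ± 2.73 CPM in extra cranial tumors (SD, n = 6), and its log2 fold change was -0.04 ± 1.11 (standard error; adjusted p by edgeR = 1). MS4A1 had 0.0239, 0.0262 and 3.54 CPM in the same extra axial tumors, against 0.113 to 1.31 CPM with a median of 0.258 in extra cranial tumors, and a log2 fold change of 2.04 ± 1.80 (standard error; adjusted p by edgeR = 1). KLRD1 had 2.70, 1.07 and 22.4 CPM in the same extra axial tumors, against 1.81 to 14.1 CPM with a median of 4.89 in extra cranial tumors, and a log2 fold change of 0.41 ± 0.97 (standard error; adjusted p by edgeR = 1). In each gene a single extra axial tumor, YAP1-MAML2-v2 replicate 6, lay above all extra cranial tumors, and the other two lay below the extra cranial median. Without that tumor the median over members turned to -2.22, and 2 members then had an unadjusted p under 0.05 and 0 an adjusted one. The median was -0.03 without YAP1-MAML2-v2 replicate 4, and with all libraries it was -0.56 with limma on log2 CPM and -0.26 with limma-voom.

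Whether the region difference depended on the construct could be asked of 9 libraries, with only 1 extra axial NLS-2SA-YAP1 tumor among them. The interaction term of edgeR called 0 of 28 members, and 0 had an unadjusted p under 0.05, against 0.00741% and 7.14% of the 13487 genes tested. It was negative for 26 members, with a median of -1.92, against 51.2% of all genes tested, with a median of -0.04. The terms of all members rest on the same single tumor, so the 26 are not separate support. MS4A1 had the most negative term (-7.94 ± 3.55 SE). The fitted value of MS4A1 rests on a value of 1 in the only extra axial NLS-2SA-YAP1 tumor.

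Other genes of the same lineages, listed apart from the members, were set beside them. Of 65 listed, 63 were in the files and 46 were tested. edgeR called 0 between constructs, with 1 at an unadjusted p under 0.05, and 0 between regions, with 0 at an unadjusted p under 0.05. Signs ran the same way as in the members, with 36 of 46 negative between constructs (median -0.42) and 33 of 46 positive between regions (median 0.27). The same libraries enter both lists, so this is no separate support. Of 51 other T cell, B cell, and cytotoxic and NK genes, 38 were highest in YAP1-MAML2-v2 replicate 6. In replicate 2, 42 were lowest or tied, including KLRB1, which was listed at 0 in every library. GZMK, a granzyme of memory CD8 T cells, had 1.15, 2.39 and 2.64 CPM over NLS-2SA-YAP1 replicates 1, 2 and 3, against 0 to 8.62 CPM across YAP1-MAML2-v2 tumors. TXK, a TEC family kinase, had 0.527, 1.84 and 3.74 CPM over NLS-2SA-YAP1 replicates 1, 2 and 3, against 0.236 to 9.27 CPM across YAP1-MAML2-v2 tumors. Both were highest in YAP1-MAML2-v2 replicate 6.

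The 2 highest genes of the T cell list and of the B cell list were each highest in a tumor other than YAP1-MAML2-v2 replicate 6, although LCP2, HAVCR2 and BLNK were lowest in replicate 2. LCP2, an adaptor of T cell and myeloid signaling, was highest in YAP1-MAML2-v2 replicate 5 (93.0 CPM). HAVCR2 (TIM-3), a checkpoint receptor of T cells and microglia, was highest in replicate 7, at 75.2 CPM, against 10.7 to 27.0 CPM in the other libraries. CD37, a tetraspanin of B cells and other leukocytes, was also highest there (61.0 CPM). That tumor had the highest CSF1R and SNAP25, whose part was not tested. BLNK, the B cell linker adaptor, was highest in YAP1-MAML2-v2 replicate 3 (34.3 CPM), with 20.3 to 32.3 CPM in NLS-2SA-YAP1 tumors. Of the plasma cell list, SDC1 (syndecan-1), which epithelial and mesenchymal cells also carry, was highest in YAP1-MAML2-v2 replicate 3 (32.4 CPM). PRDM1, the transcription factor of plasma cells and of terminal effector T cells, had 4.50, 4.85 and 9.50 CPM over NLS-2SA-YAP1 replicates 1, 2 and 3. It had 3.91 to 25.1 CPM across YAP1-MAML2-v2 tumors, where replicates 6 (25.1 CPM), 3 (24.9 CPM) and 5 (24.3 CPM) were nearly level. In the same list MZB1 reached at most 0.983 CPM, TNFRSF17 0.506 CPM, DERL3 1.78 CPM and IRF4 5.44 CPM. The part of other cell types in the PRDM1 level was not tested. The log2 fold change of PRDM1 between constructs was -1.56 ± 0.61 (standard error; adjusted p by edgeR = 0.323, unadjusted p = 0.0280). PRDM1 was the 1 listed gene with an unadjusted p under 0.05.

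Pan-leukocyte genes did not follow the members' order of libraries throughout. The 12 genes of that list, all above 1 in each library, summed to 348 to 619 CPM in NLS-2SA-YAP1 tumors and to 194 to 1049 CPM across YAP1-MAML2-v2 tumors, with the highest sum in replicate 7. CD3E was 4.61% to 7.08% of PTPRC in NLS-2SA-YAP1 tumors, against 1.63% to 6.08% in YAP1-MAML2-v2 tumors. YAP1-MAML2-v2 replicate 2 stayed the lowest on that scale (1.63%), while replicate 6 (5.47%) did not stand out from replicates 1 (6.08%) and 5 (5.89%). The list of lymph node stroma genes has 3, of which CCL21 was listed at 0 or 1 in all 10 libraries. They summed to 0.226 to 0.410 CPM in NLS-2SA-YAP1 tumors and 0.0524 to 2.77 CPM across YAP1-MAML2-v2 tumors, with 2.44 CPM in replicate 6, and their part in the lymphocyte levels was not tested. Skeletal muscle genes summed to 0.574 to 239 CPM in NLS-2SA-YAP1 tumors and 0.429 to 46.5 CPM across YAP1-MAML2-v2 tumors. The highest sum was in NLS-2SA-YAP1 replicate 3, where the lymphocyte members had a median rank of 3, and YAP1-MAML2-v2 replicate 6 had 1.15 CPM. Their part in the lymphocyte levels was not tested.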

How the data were processed

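RNA was sequenced from 10 tumors with a stranded mRNA kit, per the labels' protocols. Per the submitters' processing notes, HTSeq and mm10 were used, with no versions. Which aligner, strand setting and later steps were used is not given in the sources. Every file deposited holds 1 whole number per gene under a human-style symbol; 15475 of 16895 symbols (91.6%) match GENCODE M21 ignoring case. These deposited numbers were handled as estimated counts, because in each library genes at 1 outnumber genes at 2 by 4.54 to 6.82 times. Being whole, they entered the count tests without rounding.

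Genes were kept with filterByExpr at a minimum count of 10, which left 13707, with TMM scaling. edgeR's robust quasi-likelihood test (edgeR 4.0.16, R 4.3.3) was the main test, with terms for construct and region over all 10 libraries and Benjamini-Hochberg adjustment over all genes. The intra ventricular library has its own term, and so bears on either contrast only through the filter and the scaling. CPM was computed from TMM-scaled totals. Alternatives were DESeq2 1.42.0, limma 3.58.1 (log2 CPM with a prior count of 2, or voom with sample quality weights), other filters, RLE size factors, other terms, left-out libraries and a replicate block. Steps were tested on simulated data. Groups and replicate numbers came from the labels. These do not say that replicates of a group are separate animals, so p-values measure the spread between these samples, which may be in part technical. For the 3 highest members of each role, and for members of which 1 library holds most of the CPM, 2 things are given. These are each NLS-2SA-YAP1 value, and the range and median of the YAP1-MAML2-v2 tumors. The 2 highest genes of each other lymphocyte list with tested genes are named, some with the value of 1 library only. Other genes or libraries singled out were chosen after their values were seen. The members and lists were chosen with earlier results of these data known.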

Additional observations from a re-analysis of the deposited data

Results flagged for a closer look

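In the YAP1-MAML2-v2 tumors and in the extra cranial tumors, a library was singled out where its gap to the nearest other library was larger than Dixon's 95% critical value allows. For normally distributed values chance alone does this in about 1 in 20 groups, and 17 of 64 groups were singled out here. CPM need not be distributed so, and all 17 were singled out on the high side, so that rate may not hold here. The share over all genes was not computed. The groups share libraries and the genes of a library move together, so the 17 are not separate events.

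YAP1-MAML2-v2 replicate 6 stood above the other tumors of its construct for 7 genes, 6 of them of B cells. These were MS4A1 at 3.54 CPM, CD79A at 1.91 CPM, CD79B at 3.74 CPM, CD22 at 13.1 CPM, PAX5 at 1.32 CPM and BLK at 0.955 CPM, with the NK receptor NCR1 at 1.29 CPM. YAP1-MAML2-v2 replicate 7, the intra ventricular tumor, stood above the others of its construct for LAG3 at 8.22 CPM. It also had the highest CSF1R (623 CPM) and SNAP25 (39.8 CPM), whose part was not tested. Among extra cranial tumors, NLS-2SA-YAP1 replicate 3 stood out for 4 B cell genes, with MS4A1 at 1.31 CPM, CD79A at 0.829 CPM, PAX5 at 0.276 CPM and BLK at 0.302 CPM. YAP1-MAML2-v2 replicate 5 stood out there for 5 cytotoxic and NK genes, with NKG7 at 3.53 CPM, GZMB at 1.81 CPM, PRF1 at 6.96 CPM, IFNG at 0.297 CPM and KLRD1 at 14.1 CPM.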

How the results depend on the processing

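The count of lymphocyte members called was 0 in the main test and in each of 20 alternatives, both between constructs and between regions. With YAP1-MAML2-v2 libraries alone only 5 members passed the filter. Over all genes the counts moved. Between constructs (2 in the main test) they were 685 with DESeq2, 4 with limma, 95 with limma-voom, 4 without a filter, 4 in extra cranial libraries, 1 without the genes listed both at 0 or 1 and over 100, and 0 to 2 when single libraries were left out. Between regions (0) they were 31 with DESeq2 and 0 to 1 when single libraries were left out. For the interaction (1) they were 204 with DESeq2, 4 with limma, 0 with limma-voom, 0 without the genes listed both at 0 or 1 and over 100, and 0 to 3 when single libraries were left out. Without NLS-2SA-YAP1 replicate 1 the interaction could not be fitted.

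No fold change named here was called, and several turned sign. Between constructs, limma gave 0.028 for CD3E and 0.25 for CD4, and the fit without region gave 0.070 for CD4 and -0.32 for MS4A1. When single libraries were left out, values ran from -1.31 to 0.64 for CD3E, -0.43 to 0.62 for CD4, -1.38 to 0.28 for CD8A, -0.92 to 1.91 for MS4A1 and -1.04 to 0.18 for KLRD1. Between regions, the fit without construct gave 0.088 for CD3E, limma gave -0.32 for MS4A1 and -0.25 for KLRD1, and limma-voom gave -0.30 for MS4A1. Single libraries left out gave -2.50 to 0.46 for CD3E, -3.77 to 3.01 for MS4A1 and -1.70 to 0.98 for KLRD1. The most negative of these 3 were all without YAP1-MAML2-v2 replicate 6. The cause was not tested.

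Replicate numbers were shared by the constructs for 3 pairs, whose correlations of deviations were 0.167, 0.337 and -0.0723. Pairs of different number had -0.157 to 0.126, below the 0.167 and 0.337. These values do not settle whether the numbers pair tumors, and the main test did not pair them. A replicate block called 36 genes between constructs, 6 between regions and 0 members. It gave 0.98 for CD3E, 0.71 for CD4, 0.76 for CD8A and 0.63 for KLRD1 between constructs, and -3.19 for MS4A1 and -1.31 for KLRD1 between regions. Depth is unknown, and levels near a listed value of 1 have no clear fold.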

Other observations

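Genes of immature lymphocytes were near 0 in most libraries and were not tested. RAG1, a subunit of the recombinase that assembles antigen receptors, was the exception in a single tumor. Its deposited value was 213 (5.04 CPM) in YAP1-MAML2-v2 replicate 7, the intra ventricular tumor, and 0 or 1 in each of the other 9 libraries. The neuron genes SNAP25, SYT1 and RBFOX3 were also highest in that tumor, with deposited values of 1679, 785 and 518, against at most 66, 123 and 19 in the other libraries, and their part in the RAG1 level was not tested. RAG2, the partner without which RAG1 does not cut DNA, was listed at 0 in all 10 libraries. DNTT, IGLL1 and PTCRA, which act in developing lymphocytes, stayed at or below 0.431 CPM in the 10 libraries.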
